A study of Mus musculus with 12 samples.

Results

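The canonical histone genes of mouse kidney were followed here as a set. The set holds every gene symbol made of H1f, H2ac, H2bc, H3c or H4c and a number: 72 of the 40213 symbols in the count tables. Of these 72 genes, 8 are not replication-dependent: the replacement linker histones H1f0 and H1f10, the germline linkers H1f6, H1f7, H1f8 and H1f9, and the testis genes H2ac1 and H2bc1. RNA-seq libraries came from kidneys of C57BL/6 mice in 3 groups of 4, all labelled as the same batch. Control mice ate a normal diet and received saline into the peritoneum. Mice with chronic kidney disease (CKD) also received saline and ate a diet with 2% adenine, a purine whose crystals injure the tubules. The colchicine group received 0.3 mg/kg of colchicine a day into the peritoneum with an adenine diet; colchicine is a drug that blocks microtubule assembly. The sample labels of the colchicine group give 2%, 3%, 4% and 5% adenine for replicates 1 to 4, while the design text describes a single adenine model, so in 3 of its 4 libraries the labelled diet differs from that of the CKD group. The labels call the replicates biological but name no animals, so the p-values speak only of the spread among the libraries.

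Nucleosomes are built from the core histones H2A, H2B, H3 and H4, and the linker histone H1 binds the DNA between them. Replication-dependent histone genes lie in clusters, are transcribed when DNA is copied in S phase, and give mRNAs that normally end in a conserved stem-loop in place of a poly(A) tail. The stem-loop is bound by SLBP and its end is cut with help of the U7 small nuclear RNP; when such genes are expressed in cells that have stopped dividing, their transcripts can instead run on to a poly(A) signal. Replacement histones such as H1f0 come from ordinary polyadenylated mRNAs and are made outside S phase.

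The 3′ stem-loop is the feature that sets these mRNAs apart, so the copies of the members on which the results turn are printed from the GENCODE M21 transcripts (GRCm38, plus sense of the mRNA), with the 16-base stem-loop in capitals.

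H1f2: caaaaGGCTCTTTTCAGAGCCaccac
H2ac19: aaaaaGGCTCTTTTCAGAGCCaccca
H3c15: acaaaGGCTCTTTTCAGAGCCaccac
H4c8: ccaaaGGCCCTTTTCAGGGCCgccca
H4c9: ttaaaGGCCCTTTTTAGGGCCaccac
H2ac23: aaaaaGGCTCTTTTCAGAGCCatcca

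H2ac18 carries the same 26 bases as H2ac19. A match to the stem-loop consensus was found in 43 of the 67 members that could be linked to a GENCODE gene, against 68 of 21901 protein-coding genes (0.3105%). The commonest form, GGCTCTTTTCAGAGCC, occurred in 24 members, and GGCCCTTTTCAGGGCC and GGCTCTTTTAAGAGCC in 6 each. In the annotated transcript, 840 bases follow the stem-loop of H1f2, 377 that of H3c15 and 330 that of H4c9, but only 35 that of H2ac19 and 46 that of H4c8. No match was found in H2bc4, H2bc21, H2bc23, H2ac10, H1f0 and H1f10. H4c16, H2bc27, H2ac25, H1f9 and H2bc24 could not be linked.

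Promoter windows are shown for the 3 replication-dependent members with the most counts that have one in the RefSeq table (GRCm38.p6, a build other than the GRCm39 of the count tables). Each is the 250 bases before the gene's start, with CCAAT or its reverse complement ATTGG in capitals. H1f2 lies at chr13:23738557-23738806 (plus strand), H2ac19 at chr3:96240375-96240624 (minus strand) and H2ac18 at chr3:96245247-96245496 (plus strand).

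H1f2: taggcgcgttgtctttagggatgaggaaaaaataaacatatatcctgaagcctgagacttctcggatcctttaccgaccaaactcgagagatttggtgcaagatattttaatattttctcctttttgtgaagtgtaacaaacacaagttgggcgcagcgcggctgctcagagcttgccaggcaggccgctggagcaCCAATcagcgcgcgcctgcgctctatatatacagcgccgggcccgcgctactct
H2ac19: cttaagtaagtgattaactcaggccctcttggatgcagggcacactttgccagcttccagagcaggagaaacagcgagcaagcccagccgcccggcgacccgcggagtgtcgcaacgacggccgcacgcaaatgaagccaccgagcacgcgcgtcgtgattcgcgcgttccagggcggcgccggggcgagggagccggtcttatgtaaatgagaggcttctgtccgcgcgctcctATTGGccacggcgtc
H2ac18: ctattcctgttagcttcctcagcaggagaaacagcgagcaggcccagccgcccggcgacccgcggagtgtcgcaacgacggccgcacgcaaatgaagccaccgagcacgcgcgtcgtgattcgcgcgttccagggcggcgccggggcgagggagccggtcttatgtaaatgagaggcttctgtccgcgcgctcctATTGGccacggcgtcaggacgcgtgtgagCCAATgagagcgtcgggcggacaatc

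The full windows hold 300 bases, of which the first 250 are printed. Over the full 300 bases, the H2ac18 and H2ac19 windows share an identical run of 219 bases. Motifs were searched on both strands in the first 250 bases of every window. CCAAT occurred in 50 of 63 member windows, from 62 members (79.4%), and in 33.8% of all 32851 windows. TATAAA, the core of the TATA box, occurred in 28 member windows (44.4%) against 12.4% of all windows. The octamer ATTTGCAT, a feature of H2B promoters, occurred in 13 (20.6%) against 1.60%. A match describes the letters and is not a binding site.

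Few of the 72 genes had counts. Over the 12 libraries, 6 members held 92.8% of all member counts, 20 passed the filter on low counts and were tested, and 52 did not pass. The 52 had totals of 0 to 58 counts over 12 libraries (median 12.5), 843 in all or 0.697% of the member counts, and H2ac7 had none. At the edge of the filter, H1f3 with 58 counts was left out and H2bc24 with 92 was kept. The filter also depended on the groups. H2ac24 reached the filter's level in 4 CKD, 2 colchicine and 0 control libraries. H2ac23 and H2bc27 each reached it in 4 colchicine, 2 CKD and 1 control library. No other group had all of its libraries at that level for these genes. H4c9 reached the filter's level in 4 control, 3 CKD and 2 colchicine libraries, and H1f4 in 3 control, 0 CKD and 2 colchicine libraries. The tested genes are therefore not a neutral sample of the set. Counts are not divided by transcript length, so the shares below are shares of counts and not levels per transcript.

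**Figure D1:**
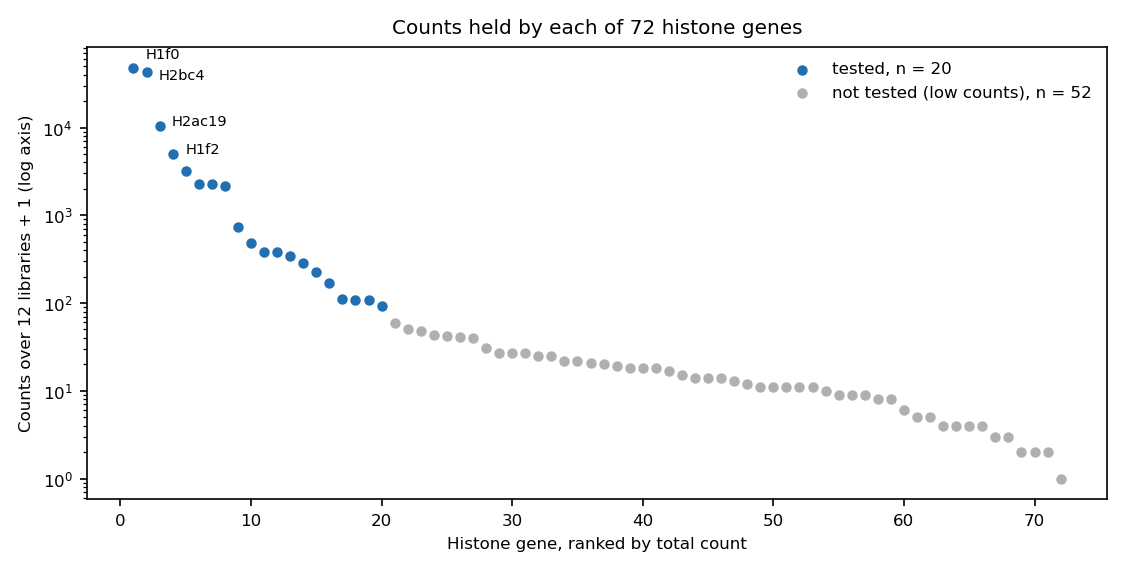
Counts summed over 12 libraries, plus 1, on a log axis for each of the 72 histone genes, ranked; blue points were tested (20) and grey points were not (52). H1f0, H2bc4, H2ac19 and H1f2 lead, and the grey points lie at 58 counts or fewer.

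Each class rested on 1 or a few genes. H2bc4 held 91.2% of the counts of the 18 H2B genes, H1f2 96.3% of those of the 5 somatic replication-dependent H1 genes, H3c15 68.7% of those of the 12 H3 genes, H2ac19 63.7% of those of the 18 H2A genes and H4c8 45.7% of those of the 13 H4 genes. H1f0 held 95.5% of the counts of the 2 replacement linkers. The numbers of genes tested were 6 of 18 for H2A, 6 of 18 for H2B, 2 of 5 for H1, 2 of 12 for H3 and 2 of 13 for H4. Among the genes tested and linked to a transcript, 9 of 17 had a poly(A) signal (AATAAA or ATTAAA) in the last 50 bases, against 7 of 50 among those not tested. The median longest transcript was 1156 bases in the first set and 522 in the second. A stem-loop was matched in 11 of 17 and in 32 of 50, and it was followed by more than 100 bases in 6 of those 11 and 14 of those 32.

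Libraries held 22200909 to 38253100 estimated counts. Mitochondrial transcripts took 41.5 to 46.7% of control counts, 16.7 to 17.3% in CKD and 14.6 to 21.8% with colchicine, and the TMM factors that scale the libraries were 0.586 to 0.646, 1.23 to 1.27 and 1.21 to 1.32. Scaling by library totals in place of TMM moved the median log2 difference over all genes between CKD and control from 0.038 to 1.05. Kidney markers were abundant in every library: the 8 tubule and podocyte genes summed to 8436 to 9148 CPM (counts scaled to a library of 1000000) in control, 2014 to 2377 in CKD and 1362 to 1657 with colchicine. Labels call the RNA total RNA, and the sources used here do not say whether poly(A) RNA was selected. Of 18 small or structural RNAs without a poly(A) tail, 7 were at 0 in every control library, 7 in every CKD library and 6 in every colchicine library, and their summed level was only 51.1 to 102.7, 18.7 to 24.4 and 31 to 84.7 CPM. The colchicine library of replicate 1 stood apart: without it, 2882 genes were higher and 3519 lower with colchicine than in CKD, against 1212 and 1470 with all libraries.

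The whole set of 72 genes was lowest in CKD. It took 0.0396 to 0.0471% of all counts in the control libraries, 0.0259 to 0.0282% in CKD and 0.0344 to 0.0400% with colchicine. The CKD libraries lay below all others, and the highest colchicine library lay above the lowest control library. On the TMM scale used from here on, the set summed to 655 to 738 CPM in control, 205 to 230 in CKD and 267 to 332 with colchicine, and no groups overlapped. H1f0, which is not replication-dependent, held 39.9% of all member counts and so weighs heavily in these sums. Its means were 209 CPM in control, 99.4 in CKD and 136 with colchicine, and its CKD and colchicine libraries overlapped. In these bulk libraries, fewer cells of a type and less RNA per cell cannot be told apart.

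H2bc4, H2ac19 and H1f2, the replication-dependent genes with the most counts, were 4.87- to 6.05-fold lower in CKD kidneys than in control kidneys. H1f0 was 2.10-fold lower, and H1f10 was 3.17-fold higher. Of the 20 genes tested, 12 were lower in CKD than in control and 2 were higher (edgeR's quasi-likelihood test, adjusted p under 0.05), while 33.4% of all genes tested were called lower, 34.1% higher and 67.4% in either direction. The groups did not overlap for 12 members below and 2 above control, against 33% and 33.2% of all genes tested. The median log2 fold change was −0.87 over the 20 members and 0.038 over all genes tested. With the 18 replication-dependent genes alone, 11 were lower, 1 was higher and the median was −1.16. Under library totals the counts became 8 lower and 6 higher, with 1850 of all genes lower and 13197 higher.

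Among H2B genes, H2bc4 carried most of the counts. Its control levels were 323, 342, 326 and 291 CPM. In CKD they were 61.3, 57.6, 70.2 and 64.6 CPM. Every CKD library was far under every control library, 5.05-fold on average (log2 fold change −2.34 ± 0.12 (SE), adjusted p = 1.92e-10). H2bc6 was also lower, at 1.89 ± 0.422 CPM (SD, n = 4) in control and 0.600 ± 0.207 in CKD. H2bc21, which has a long transcript with no stem-loop match, moved much less, from 10.4, 11.7, 11.9 and 11 CPM to 8.12, 8.44, 8.72 and 9.64 CPM. The groups did not overlap, but its log2 fold change of −0.36 ± 0.09 (adjusted p = 0.00259) became 0.64 under library totals. H2bc23, H2bc24 and H2bc27 were not called, with group means of 0.573 CPM or less in all 3 groups.

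Among H2A genes, the neighbouring copies H2ac19 and H2ac18 fell alike. H2ac19 stood at 76.0, 84.7, 92.4 and 68.5 CPM in control and at 10.8, 14.5, 14.3 and 13.6 CPM in CKD. H2ac18 stood at 18.5, 27.4, 14.4 and 17.0 CPM and at 5.59, 3.31, 1.76 and 2.25 CPM. Neither gene's groups overlapped, and both were 6.05-fold lower in CKD, with log2 fold changes of −2.60 ± 0.13 (adjusted p = 1.39e-10) and −2.60 ± 0.34 (adjusted p = 1.44e-05). H2ac25 fell less, from 9.21, 8.45, 10.2 and 9.45 CPM to 6.37, 5.88, 6.22 and 6.57 CPM. Its log2 fold change was −0.57 ± 0.15 (adjusted p = 0.00322) and turned to 0.44 under library totals. H2ac10, at 0.450 ± 0.0995 CPM in control and 0.553 ± 0.179 in CKD, was not called. H2ac24 went the other way. It had no count in any control library and 36, 52, 52 and 86 counts in CKD, at least 41.6-fold higher when set against 3 counts over the control group. The call for H2ac24 (adjusted p = 0.0338) was lost when any of the control or CKD libraries, or colchicine replicate 1, was left out, and its reads can hardly be told from those of H2ac23, as described below.

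The linker histones divided. The replication-dependent linker H1f2 stood at 24.7, 35.8, 36.2 and 37.1 CPM in control. In CKD it stood at 6.30, 7.41, 7.83 and 5.93 CPM. The CKD libraries lay below all control libraries, including control replicate 1, which was the lowest of its group, and the log2 fold change was −2.28 ± 0.14 (adjusted p = 1.41e-09). H1f4 fell from 0.731 ± 0.218 to 0.105 ± 0.0677 CPM (log2 fold change −2.75 ± 0.57, adjusted p = 0.000536). Its counts a library were 7 to 16 in control and 1 to 6 in CKD. H1f4 reached the level asked by the filter in 3 control, 0 CKD and 2 colchicine libraries, so it was tested only through groups where it is higher. The replacement linker H1f0, which accumulates in cells that have left the cell cycle, fell by less, from 197, 210, 221 and 208 CPM to 100.3, 97.6, 110.4 and 89.5 CPM. Its groups were well apart, with a log2 fold change of −1.07 ± 0.12 (adjusted p = 1.32e-06), but under library totals the value was −0.066 and not called. H1f10, the other replacement linker, rose instead, from 2.16, 1.73, 1.16 and 0.812 CPM to 4.61, 4.59, 4.61 and 4.94 CPM. All 4 CKD libraries lay above all controls, 3.17-fold on average (log2 fold change 1.66 ± 0.28, adjusted p = 8e-05).

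Of the H3 and H4 genes, 2 of 12 and 2 of 13 had enough counts to be tested, and H3c15, H4c8 and H4c9 fell. H3c15 stood at 2.86, 3.21, 3.77 and 1.39 CPM in control and at 0.528, 0.392, 0.327 and 0.409 CPM in CKD, with a log2 fold change of −2.75 ± 0.32 (adjusted p = 2.05e-06). H4c8 stood at 3.85, 3.36, 3.29 and 2.61 CPM and at 0.317, 0.392, 0.447 and 0.263 CPM, where the CKD values are 9 to 15 counts a library. Its log2 fold change of −3.19 ± 0.38 was the largest decrease among the members (adjusted p = 2.04e-06). H4c9 fell from 1.79 ± 0.394 to 0.351 ± 0.102 CPM (log2 fold change −2.35 ± 0.47, adjusted p = 0.000366). H4c9 reached the level asked by the filter on low counts in 4 control, 3 CKD and 2 colchicine libraries. H3c14 was not called, at 0.321 ± 0.112 and 0.302 ± 0.122 CPM.

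**Figure D2:**
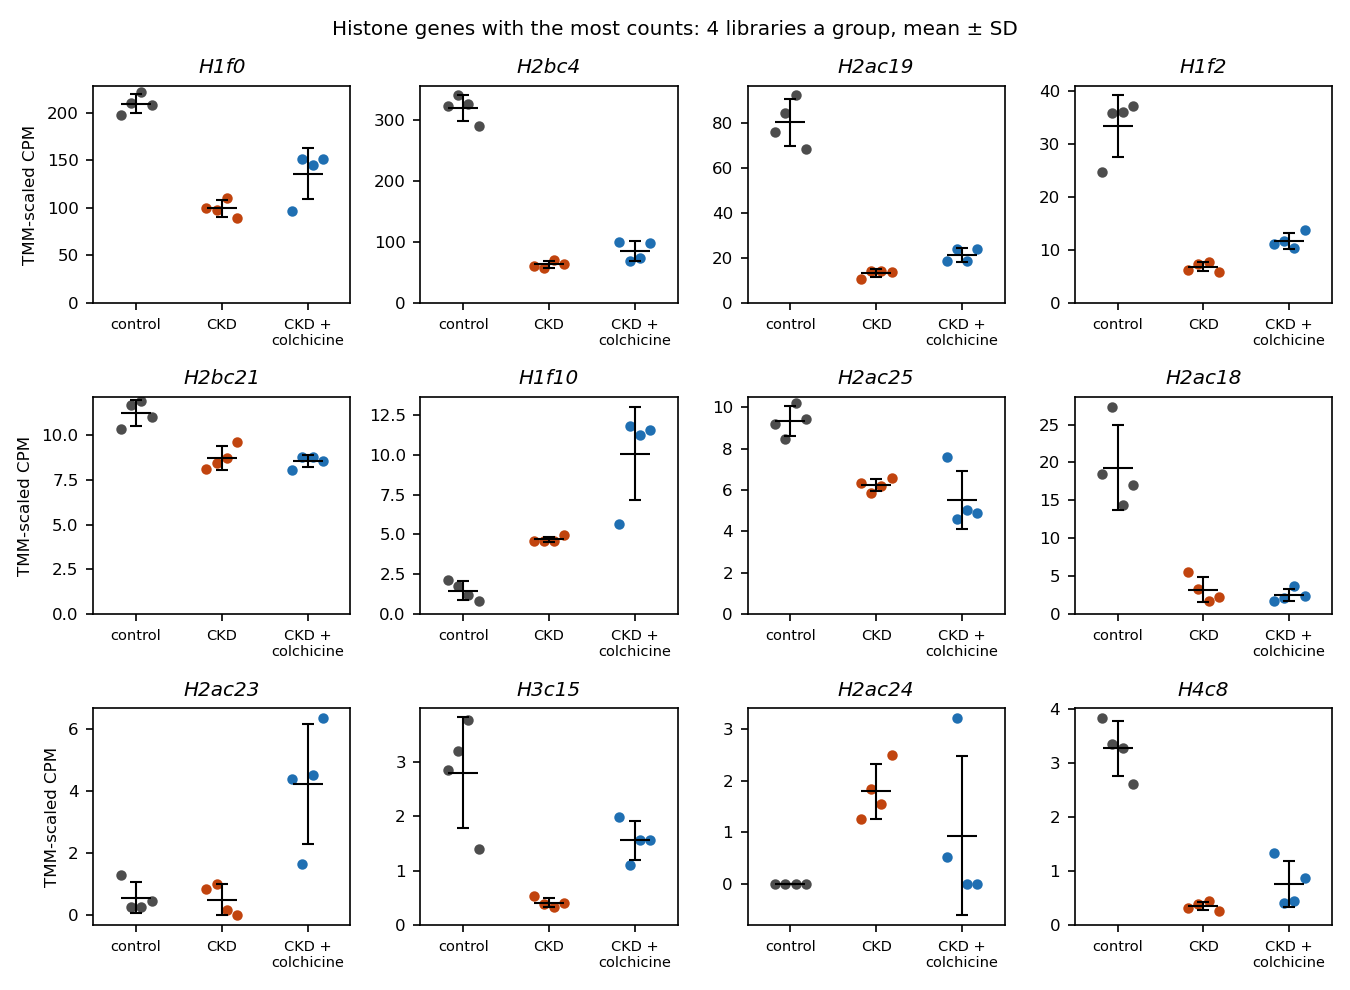
TMM-scaled CPM in each library (points) with the mean and SD of 4 libraries (bars) for the 12 histone genes with the most counts, in control, CKD and CKD with colchicine. For H2bc4, H2ac19, H1f2 and H4c8 the control points lie far above both other groups, while H1f10 rises from control to CKD to colchicine.

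Summing each class removes the split of reads among near-identical genes of that class, but not a split across classes, as between H2bc6 and H1f4, which share sequence. Between CKD and control the classes changed by like amounts. Between colchicine and CKD the ratio of means ran from 1.31 (H2B) to 2.63 (H3). The H2B sum was 335 ± 22.4 CPM (SD, n = 4) in control, 74.0 ± 5.36 in CKD and 96.9 ± 16.6 with colchicine. For H2A the sum was 110.4 ± 11.8, 25.9 ± 1.21 and 36.3 ± 2.55 CPM, and the H1 sum was 34.3 ± 6.02, 7.13 ± 0.976 and 12.4 ± 1.73 CPM. The H4 sum was 5.64 ± 0.177, 1.25 ± 0.306 and 1.92 ± 0.864 CPM and the H3 sum 3.34 ± 1.2, 0.894 ± 0.167 and 2.35 ± 0.277 CPM. CKD lay below control with no overlap in all 5 classes, by 3.74-fold (H3) to 4.81-fold (H1). The colchicine libraries lay above the CKD libraries with no overlap for H1, H2A and H3, and overlapped them for H2B and H4. They lay below control for H1, H2A, H2B and H4 and overlapped control for H3. The replacement linkers summed to 211 ± 9.42, 104 ± 8.52 and 146 ± 29.3 CPM. No class sum was tested.

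With colchicine, histone mRNAs were partly higher than in CKD without it. Of the 20 genes tested, 8 were higher and 0 lower, while 6.79% of all genes tested were called higher, 8.24% lower and 15% in either direction (edgeR's quasi-likelihood test). At an unadjusted p under 0.05, 10 members were higher and 0 lower, against 15.8% and 17.2% of all genes. DESeq2 called 9 higher and 0 lower, against 8.42% and 12.9% of all genes. Limma-voom called 8 higher and 1 lower, H2ac24, against 8.02% and 10.9%. The groups did not overlap for 6 members, all above, against 8.92% of all genes tested above and 9.29% below. The median log2 fold change was 0.57 over the members and 0.031 over all genes. With a slope for the labelled adenine percentage in the fit, 2 of the 8 calls were made (H1f2 and H3c15), against 392 of all genes higher and 616 lower. Without CKD replicate 4, or without colchicine replicate 4, 5 were made.

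Among H2A genes, H2ac19 rose from its CKD level to 18.6, 24.1, 18.8 and 24.1 CPM (log2 fold change 0.69 ± 0.12, adjusted p = 0.0046). H2ac23 rose from 0.844, 0.997, 0.179 and 0 CPM in CKD to 4.40, 1.65, 4.51 and 6.37 CPM (log2 fold change 3.10 ± 0.74, adjusted p = 0.0187). H2ac23 reached the level asked by the filter in all 4 colchicine libraries, where it is high, but in only 2 CKD libraries and 1 control library. Its call was lost with no filter and without CKD replicate 3. H2ac10 rose to 1.63, 0.871, 1.09 and 1.32 CPM (log2 fold change 1.15 ± 0.31, adjusted p = 0.0239). All 4 colchicine libraries lay above all CKD libraries for each of these 3 genes. H2ac10 was not called without CKD replicate 3, CKD replicate 4 or colchicine replicate 4. Much of its sequence is also shared with other H2A genes, as described below. H2ac18 stood at 1.74, 2.14, 3.65 and 2.40 CPM and was not called. H2ac25 stood at 7.61, 4.59, 5.02 and 4.87 CPM, with replicate 1 above every CKD library and the other 3 libraries below them, and was not called. Without colchicine replicate 1, H2ac25 was called lower at a log2 fold change of −0.38.

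Among linker genes, H1f2 rose to 11.2, 11.7, 10.3 and 13.7 CPM (log2 fold change 0.77 ± 0.14, adjusted p = 0.00441), above all CKD libraries and below all control libraries. H1f10 rose to 5.68, 11.8, 11.3 and 11.5 CPM (log2 fold change 1.10 ± 0.23, adjusted p = 0.00884), with replicate 1 nearest to CKD. H1f0 stood at 96.7, 151.4, 144.9 and 150.8 CPM. Here 3 libraries lay above CKD and replicate 1 lay among the CKD values; the log2 fold change was 0.45 ± 0.12 (adjusted p = 0.0238). Leaving out any of CKD replicates 1, 2 and 4 or colchicine replicates 2, 3 and 4 ended the call for H1f0. H1f4, at 0.327 ± 0.213 CPM, was not called.

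Among H2B genes, H2bc4 stood at 99.6, 68.4, 74.6 and 98.5 CPM with colchicine. Replicates 2 and 3 reached into or close to the CKD range of 57.6 to 70.2 CPM, and the log2 fold change was 0.43 ± 0.12 (adjusted p = 0.0254). The call for H2bc4 ended without CKD replicate 1, 2 or 4 or colchicine replicate 4. H2bc21, at 8.07, 8.81, 8.78 and 8.59 CPM, had a log2 fold change of −0.029 ± 0.09 and was not called. H2bc6 stood at 0.826 ± 0.138 CPM and was not called.

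Of the H3 and H4 genes, H3c15 rose to 1.98, 1.11, 1.57 and 1.57 CPM. All colchicine libraries were above all CKD libraries, 3.74-fold on average (log2 fold change 1.90 ± 0.32, adjusted p = 0.00289). Much of the H3c15 sequence is shared with other H3 genes, as described below. H4c8 stood at 1.33, 0.400, 0.443 and 0.870 CPM, overlapping CKD, and was not called (log2 fold change 1.07 ± 0.38, adjusted p = 0.0699). H4c9 stood at 0.842, 0.141, 0.201 and 0.452 CPM and was not called.

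**Figure D3:**
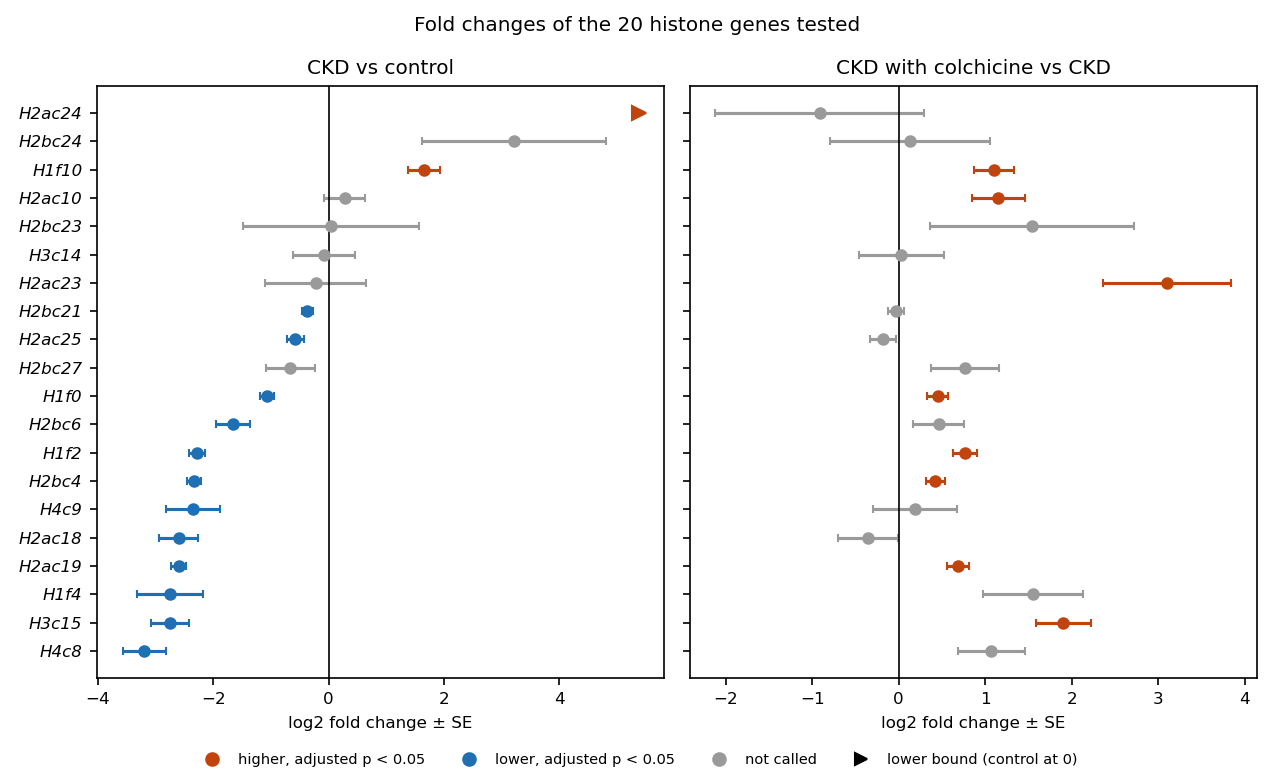
Log2 fold change with its SE for the 20 histone genes tested, CKD against control (left) and colchicine against CKD (right), in the same gene order; orange, higher; blue, lower; grey, not called; the triangle is a lower bound for H2ac24, which had no control count. On the left 12 genes lie in blue, and on the right 8 lie in orange and none in blue.

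Set directly against control, the colchicine group held 12 members lower and 3 higher, against 33.4% and 37.1% of all genes tested (70.5% in either direction). This comparison shares its libraries with the other comparisons and is no separate evidence. The groups did not overlap for 10 members below and 3 above, against 30.3% and 32.2% of all genes, and the median log2 fold change was −0.69 against 0.10. The 3 higher members were H1f10 (log2 fold change 2.77 ± 0.27, adjusted p = 2.79e-07), H2ac23 (2.88 ± 0.77, adjusted p = 0.00503) and H2ac10 (1.43 ± 0.34, adjusted p = 0.00138). H2bc4 and H2ac19 were each 3.76-fold lower than in control, H2ac18 was 7.72-fold lower, H4c8 4.35-fold and H4c9 4.45-fold. The separate values of H2ac18 and H2ac19 depend on an uncertain split of reads, as described below. Summed, these copies were 4.18-fold lower than in control (log2 fold change −2.06 ± 0.10). H1f0 was 1.54-fold lower (adjusted p = 0.000273). H1f4 and H3c15 were called lower although their groups overlapped control, and H3c15 had a log2 fold change of −0.85 ± 0.29 (adjusted p = 0.0156) that was not called under upper-quartile scaling, library totals, the adenine slope or library totals without mitochondrial transcripts, nor without control replicate 3 or colchicine replicate 2. H1f4 lost its call under the same scalings, with no filter on low counts, and without any of control replicates 2, 3 and 4, CKD replicates 1 and 2 or colchicine replicates 1, 2 and 3. Under library totals 6 members were lower and 8 higher, with 1953 of all genes lower and 13762 higher.

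Some pairs of genes are so alike that the split of reads between them is uncertain. All 498 31-base words of the H2ac19 transcript occur in H2ac18, and H2ac23 and H2ac24 share 422 such words, 93.8% of the smaller transcript's. Sharing was not confined to these pairs. Only 14.1% of the words of H2ac10, 1.74% of those of H2bc23, 35.8% of those of H3c15 and 0% of those of H3c14 occur in no other gene. H3c15 shares 636 words with H3c14, 64.2% of its own. H2ac10 shares 85.9% of its words with H2ac7, which had no count, so the H2ac10 reads are hard to assign. H2ac24 had 19 and 137 counts in colchicine replicates 1 and 2 and none in replicates 3 and 4, whereas H2ac23 had none in CKD replicate 4, where H2ac24 had 86. Their sum was 22, 5, 4 and 8 counts in control, 60, 80, 58 and 86 in CKD and 181, 207, 224 and 183 with colchicine. Summed before the fit, an alternative added after the values were seen, the pair was 4.01-fold higher in CKD than in control (log2 fold change 2.00 ± 0.37, adjusted p = 0.000215). It was 2.24-fold higher with colchicine than in CKD (log2 fold change 1.17 ± 0.29, adjusted p = 0.0191). The groups did not overlap in either comparison. The H2ac18 and H2ac19 pair, also summed, was 6.04-fold lower in CKD than in control (log2 fold change −2.60 ± 0.11, adjusted p = 1.71e-11). It was 1.45-fold higher with colchicine than in CKD (log2 fold change 0.53 ± 0.10, adjusted p = 0.00599).

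H2bc23 and H2bc24 were set side by side after their values were seen; H2bc24 could not be linked to a transcript, so their likeness in sequence was not measured. In 10 of 12 libraries only 1 of the pair had counts. Both had counts in CKD replicate 2 (20 for H2bc23 and 2 for H2bc24) and in colchicine replicate 1 (20 and 30). Their sum was 3, 2, 3 and 5 counts in control, 14, 22, 9 and 13 in CKD and 50, 22, 32 and 24 with colchicine. H2bc24 alone had 2 counts over the control libraries and 38 over the CKD libraries, a ratio of 10.5 with a 95% exact interval of 2.71 to 89.7 that covers counting error only, and it was not called (adjusted p = 0.0912).

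**Figure D4:**
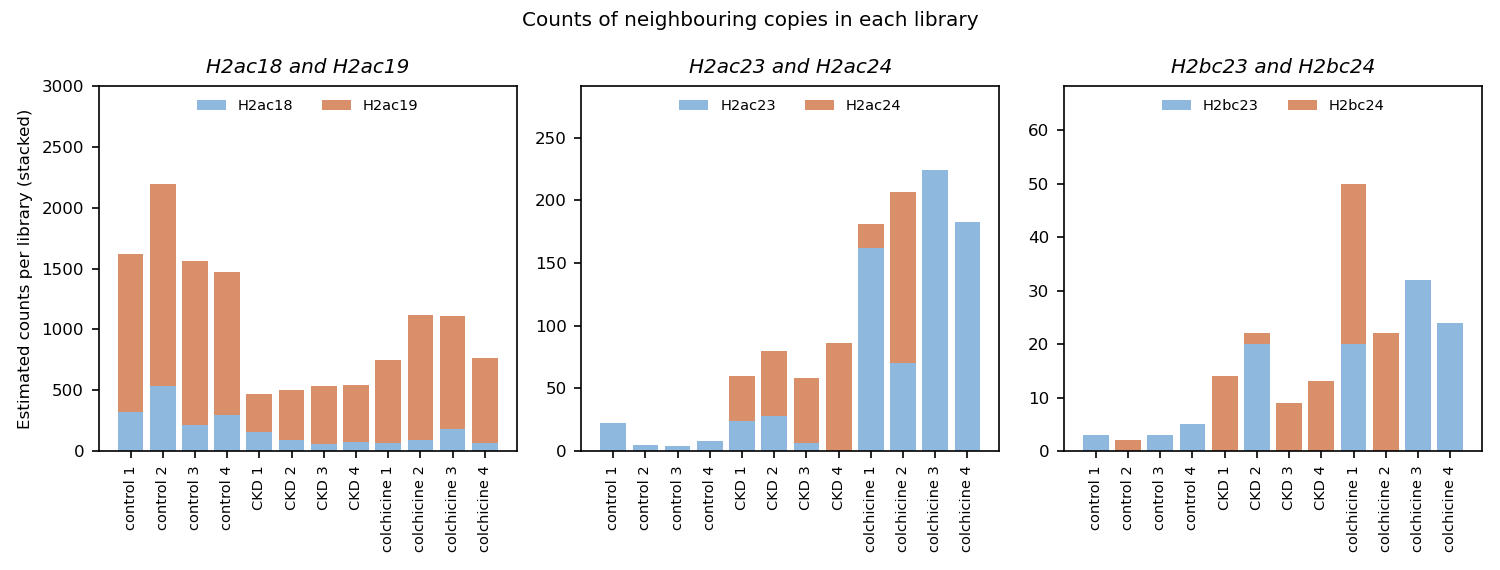
Estimated counts in each of the 12 libraries for 3 pairs of genes, stacked, so that the bar height is the sum of the pair; each panel has its own axis. The split between H2ac23 and H2ac24 varies from library to library, while their sum rises from 4 to 22 in control to 58 to 86 in CKD and 181 to 224 with colchicine.

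The 52 genes that were not tested summed to 2.18 ± 0.380 CPM (SD, n = 4) in control, 1.79 ± 0.240 in CKD and 3.07 ± 0.818 with colchicine. Ranges were 1.80 to 2.70, 1.55 to 2.10 and 2.26 to 3.86 CPM, so the colchicine libraries lay above the CKD libraries and overlapped control. They comprise 12 H2A, 12 H2B, 10 H3, 11 H4 and 3 somatic H1 genes and the 4 germline linkers. The highest totals over 12 libraries were 58 counts for H1f3, 49 for H2bc8 and 47 for H3c6. The germline linkers H1f6 to H1f9 had 8 to 14 counts each, and the testis genes H2ac1 and H2bc1 had 1 and 3. At least 1 count was seen for 37 to 41 of the 72 members in a control library, 36 to 42 in a CKD library and 47 to 52 in a colchicine library. With no filter on low counts, 71 members were fitted, and 13 were lower and 1 higher in CKD than in control, against 17.9% and 20% of the 31984 genes then fitted. The 13 lower members are near that background share.

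Of 22 S-phase and proliferation genes, 19 were higher in CKD than in control and 1, Gmnn, was lower, with a median log2 fold change of 1.04. Of all genes tested, 34.1% were higher and 33.4% lower. Under library totals 21 were higher and none lower, with a median of 2.04 against 1.05 over all genes. Uhrf1, which reads DNA methylation at the replication fork, went from 1.56 ± 0.380 to 10.6 ± 0.724 CPM (log2 fold change 2.78 ± 0.17, adjusted p = 9.78e-10). Mcm3, a subunit of the replicative helicase, went from 6.80 ± 0.473 to 19.9 ± 2.25 CPM. Mki67, a marker of cycling cells, went from 8.69 ± 1.45 to 37.9 ± 4.66 CPM, and Top2a, a topoisomerase of dividing cells, from 3.45 ± 0.342 to 17.9 ± 2.52 CPM. With colchicine, 0 of the 22 were called in either direction against CKD by edgeR, DESeq2 or limma-voom. By edgeR, 6.79% of all genes tested were higher and 8.24% lower. Mki67 then stood at 49.7 ± 17.4 CPM (log2 fold change 0.39 ± 0.20, adjusted p = 0.184) and Top2a at 23.4 ± 8.95 CPM.

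Of 21 genes of histone transcription and mRNA 3′ end processing, 10 were higher in CKD than in control and none lower, with a median log2 fold change of 0.24. Of all genes tested, 34.1% were higher and 33.4% lower in CKD than in control, and 6.79% and 8.24% with colchicine than in CKD. Under library totals all 21 were higher, with a median of 1.25 against 1.05 over all genes. Tut4, an RNA uridylyltransferase, went from 14.8 ± 1.03 to 27.7 ± 0.655 CPM (log2 fold change 0.90 ± 0.08, adjusted p = 1.31e-07), and Cdk2, the kinase that activates NPAT, from 9.95 ± 1.45 to 16 ± 0.930 CPM. Npat, the histone gene coactivator, went from 13.4 ± 3.04 to 18.7 ± 1.35 CPM (adjusted p = 0.0155). Slbp, the stem-loop binding protein, stood at 31.5 ± 2.10 and 36.2 ± 0.640 CPM and was not called (adjusted p = 0.0943). With colchicine, Slbp and the endonuclease gene Cpsf3 were lower than in CKD and Upf1, a helicase of mRNA decay, was higher. Slbp stood at 29.2 ± 5.00 CPM (log2 fold change −0.31 ± 0.10, adjusted p = 0.0487), and Cpsf3 went from 55.4 ± 2.57 to 44.5 ± 2.27 CPM (adjusted p = 0.00968). The calls of this list depended on the setting: library totals gave 0 higher and 1 lower, and the adenine slope 0 and 0. Of 19 histone chaperone and deposition genes, 12 were higher in CKD and 3 lower (Asf1a, Rbbp4 and Anp32e), and 2 were higher with colchicine than in CKD and 0 lower, by edgeR, DESeq2 and limma-voom alike. Under library totals all 19 were higher in CKD than in control, with a median of 1.36 against 1.05 over all genes. The 2 called with colchicine were the subunits of chromatin assembly factor 1, Chaf1b (6.31 ± 0.623 to 9.93 ± 0.659 CPM, adjusted p = 0.012) and Chaf1a (5.09 ± 0.866 to 7.29 ± 1.00 CPM, adjusted p = 0.0298). With the adenine slope 0 chaperone genes were higher and 0 lower, against 392 of all genes higher and 616 lower. With a replicate block 1 was higher and 0 lower, against 694 and 1062 of all genes. Npm1, a nucleolar chaperone, went from 269 ± 7.57 CPM in control to 434 ± 17.8 in CKD (adjusted p = 1.54e-07).

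Histone genes outside the naming pattern differed among themselves. Of 9 tested, 4 were higher in CKD than in control (H2ax, H3f3b, Macroh2a2 and Cenpa) and 2 lower (H2aj and H2az2). Of all genes tested, 34.1% were higher and 33.4% lower. H2aj, an H2A gene that is not replication-dependent, stood at 134 ± 17.4 CPM in control, 47.9 ± 0.335 in CKD and 63.8 ± 9.45 with colchicine. It was lower in CKD (log2 fold change −1.48 ± 0.11, adjusted p = 1.23e-08) and higher with colchicine than in CKD (0.41 ± 0.11, adjusted p = 0.0238). H2ax, the damage-marking variant, stood at 10.7 ± 0.555, 14.7 ± 0.649 and 20.05 ± 1.31 CPM and was called higher in both steps. The replacement genes H3f3a (338 ± 16 and 362 ± 16.3 CPM) and H2az1 (70.4 ± 2.96 and 76.1 ± 3.23 CPM) were not called between CKD and control. H3f3b went from 268 ± 31.3 to 311 ± 16.2 CPM (log2 fold change 0.22 ± 0.09, adjusted p = 0.0411). Under library totals 8 of the 9 were called higher in CKD and 1 lower, but the median of the list was then 1.12 against 1.05 over all genes.

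**Figure D5:**
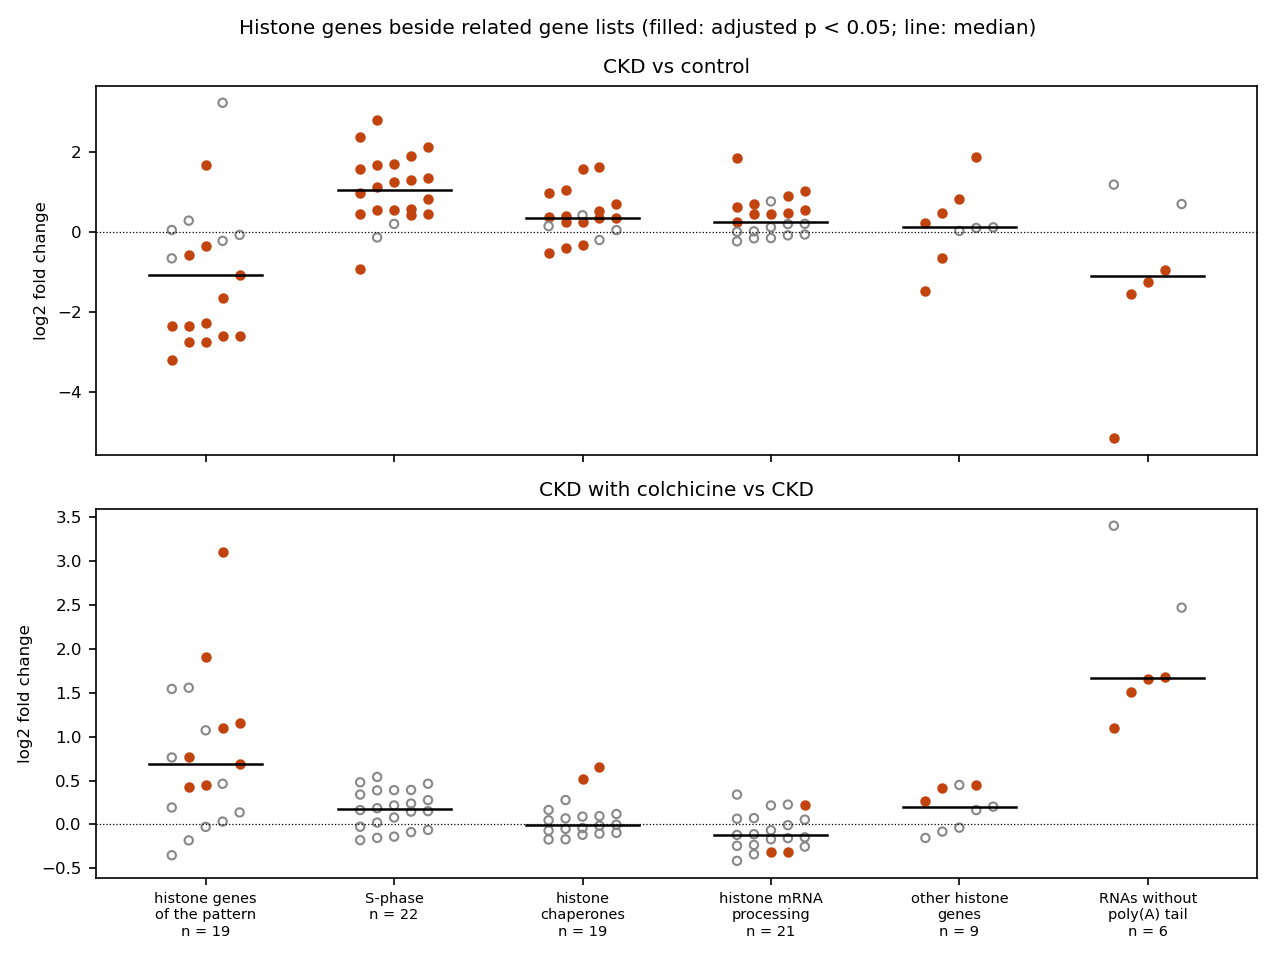
Log2 fold change of each tested gene (points; filled where adjusted p is under 0.05) and the median (line) for the histone genes and 5 related lists, CKD against control (top) and colchicine against CKD (bottom); H2ac24, with no control count, is left out, so 19 histone genes are drawn. The S-phase genes have a median of 1.04 in the top panel, where the histone genes and the RNAs without a poly(A) tail lie mostly below 0.

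Other RNA classes and cell type markers also differed among the groups, not all in the direction of the histone genes. Of all genes tested, 34.1% were higher and 33.4% lower in CKD than in control, and 6.79% and 8.24% with colchicine than in CKD. Of the 6 tested RNAs without a poly(A) tail, 4 were lower in CKD than in control and none higher (median log2 fold change −1.11; under library totals 2 were lower and 1 higher, with a median of −0.095), and 4 were higher with colchicine than in CKD and none lower (median 1.67). Rn7s2, a signal recognition particle RNA, stood at 42.3 ± 6.29 CPM in control, 14.5 ± 2.13 in CKD and 31 ± 8.61 with colchicine, and Rn7sk, which holds P-TEFb inactive, at 9.77 ± 3.40, 4.10 ± 1.34 and 11.8 ± 4.44 CPM. Of the 6 erythroid markers tested, 6 were lower in CKD than in control, and all 7 in the files summed to 212 to 581, 34.7 to 99.5 and 15.7 to 41.2 CPM. Leukocyte markers were higher in CKD for 10 of 12 (42.3 to 51.0 CPM summed in control and 1139 to 1188 in CKD) and lower with colchicine than in CKD for 6 of 12 (670 to 1025 CPM). Fibroblast markers were higher in CKD for 6 of 6 and higher again with colchicine for 3 of 6 (399.8 to 486, 3262 to 3862 and 4066 to 5212 CPM summed). Kidney markers were lower in CKD for 5 of 8 and higher for 1. No marker in these lists was at 0 in every library of a group. The part of these shifts, of the mitochondrial share and of the labelled diets in the histone results was not tested.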

How the data were processed

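Per the labels' protocols, CORALL V2 libraries were made from kidney RNA. The authors used fastp, STAR and Salmon with GRCm39 (submitters' processing notes, which give no versions and do not say whether poly(A) RNA was selected). Their deposited files hold estimated counts per gene symbol as whole numbers; all 28 values of 1000000 or more are multiples of 10, so the largest were rounded. Genes were kept by filterByExpr (minimum count 10; 17841 genes), scaled by TMM and tested with edgeR 4.0.16 in R 4.3.3 (robust quasi-likelihood fit, 3 group means, 12 libraries, two-sided) with Benjamini-Hochberg adjustment over all genes tested. CPM are counts scaled to a TMM-scaled library of 1000000. DESeq2 1.42.0 and limma 3.58.1 (voom) were alternatives. The test was also run on simulated counts in which 200 genes were changed. Here 12028 genes were called between CKD and control, so that run does not test the scaling.

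Named genes were the 12 members with the most counts, the 6 called members with the largest fold change in each comparison, H1f0, H1f10, members at the filter's edge, and for each list the 2 genes with the smallest p and preset genes. Members and lists were chosen with earlier results of these data known. Marker lists for kidney, leukocytes, erythroid cells and fibroblasts were summed in CPM. Stem-loops, poly(A) signals and shared 31-base words were searched in GENCODE M21 transcripts (GRCm38), linked by Entrez ID through RefSeq. List symbols not found in the files (H3f5, H4f16, H2bu2, Rn7s6, Rnu4atac) were not used. Replicate numbers did not pair the samples: the 12 same-number correlations ran from −0.279 to 0.159.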

Additional observations from a re-analysis of the deposited data

Results flagged for a closer look

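In 60 groups of 4 libraries examined for a library far from its group (Dixon's test at 95%), 8 stood out; chance gives about 1 in 20. Colchicine replicate 1, the library labelled 2% adenine, was flagged for 3 genes. It had 96.7 CPM of H1f0 against 144.9 to 151.4 in the other 3, 5.68 CPM of H1f10 against 11.3 to 11.8, and 7.61 CPM of H2ac25 against 4.59 to 5.02. Control replicate 1 was low for H1f2, at 24.7 CPM against 35.8 to 37.1, and for H1f4, at 0.408 CPM against 0.812 to 0.890. Its H1 class sum, mostly H1f2, was 25.3 CPM against 36.6 to 38.1. Not all linkers were low there, since H1f10 was highest in that library, at 2.16 CPM against 0.812 to 1.73. H2ac24 was high in colchicine replicate 2, at 3.23 CPM against 0 to 0.516, and its split from H2ac23 is uncertain. H1f10 in CKD replicate 4, at 4.94 CPM against 4.59 to 4.61, stood out only because the others were so close.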

How the results depend on the processing

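The decreases of H2bc4, H2ac19, H2ac18, H1f2, H1f4, H3c15, H4c8 and H4c9 in CKD kept their direction and call under every alternative that could test them: H1f4 and H4c9 were not tested at a minimum count of 30, H1f4 not in the 8 libraries compared, and H2ac18 and H2ac19 not singly when copies were summed. H1f4 passed the filter with no CKD library at the level asked. Calling lower members in CKD gave 8 to 13 over all alternatives, with 1850 to 6294 of all genes lower. Scaling mattered most. Under library totals, members called higher were 6 (CKD against control) and 8 (colchicine against control), and lower members in the last comparison were 6. Over all genes these were 13197, 13762 and 1953. With mitochondrial transcripts left out and library totals, added after seeing the data, colchicine against control gave 5 higher and 7 lower, with 10368 and 3482 of all genes. Under library totals the class sums had log2 ratios for CKD against control of −1.26 (H1), −1.08 (H2A), −1.17 (H2B), −0.89 (H3) and −1.16 (H4), and for colchicine against control of −0.45 (H1), −0.57 (H2A), −0.76 (H2B), −0.53 (H4) and 0.53 (H3, reversed); upper-quartile scaling gave −1.41 (H2A). Library totals also reversed H1f0 (0.41), H2bc21 (0.64), H2ac25 (0.28) and H3c15 (0.19) for colchicine against control, and H2bc21 (0.64), H2ac25 (0.44) and H2ac23 (0.80) for CKD against control. Leaving mitochondrial transcripts out gave 0.089 (H2bc21, CKD against control), 0.012 (H2bc21, colchicine against CKD), 0.10 (H2bc21, colchicine against control) and 0.23 (H2ac23, CKD against control).

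Of counts higher in CKD, no filter gave 1 and replication-dependent members alone 1. Leaving out 1 library gave 1 to 3, with 5775 to 6396 of all genes higher. For colchicine against CKD, the adenine slope gave 2 higher, with 392 of all genes higher, and limma-voom 1 lower, with 1938 of all genes lower. Leaving out 1 library gave 5 to 9 higher and 0 to 1 lower. Over all genes it gave 419 to 2882 higher and 573 to 3519 lower. For colchicine against control, DESeq2 gave 5 higher, the adenine slope 5, and leaving out 1 library 3 to 5. Over all genes these gave 6467, 5960 and 6188 to 6961 higher. Uncalled values that reversed were, for colchicine against CKD, H2bc21 under upper-quartile scaling (0.034) and without CKD replicate 4 (0.021, lowest −0.064 over the libraries left out), H2ac25 (0.084) and H2ac24 (1.32) with the adenine slope, H2ac18 without CKD replicate 1 (0.045, lowest −0.61), and H4c9 under limma-voom (−0.15) and without colchicine replicate 1 (−0.47, highest 0.49). For CKD against control, H2ac23 reversed without control replicate 1 (0.55), CKD replicate 3 (0.068) or CKD replicate 4 (0.22), with a lowest value of −0.80. The causes were not tested.

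The replicate numbers did not pair the samples. With a replicate block, 2 members were higher and 12 lower in CKD than in control, with 5871 and 5771 of all 17841 genes. For colchicine against CKD, 7 were higher and 0 lower, with 694 and 1062 of all genes. For colchicine against control, 3 were higher and 12 lower, with 6320 and 5846 of all genes. H2bc4 lost its call for colchicine against CKD.

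Depth limits the 52 members not tested and members with under 20 counts a library.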
